A study of Mus musculus with 6 samples.

Results

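The genes described here are the collagens of mouse skin, taken as every gene of the count table whose Ensembl identifier carries a collagen chain symbol (*Col* with a type number, *a* and a chain number) in the GENCODE M21 annotation of GRCm38. The rule used names only and found 44 collagens among the 26579 genes of the table, which are all 44 that the annotation holds. The RNA came from dorsal neck skin of 3 female YAP2-5SA-∆C mice (TG) and 3 female wild type littermates (WT) at 33 days of age, with 1 RNA-Seq library per mouse. YAP2-5SA-∆C mice make a mildly activated, truncated YAP protein in basal keratinocytes, and their skin was taken when the visible phenotype had just begun, with a thickened epidermis. The comparison asks how the collagen transcripts of whole skin differ between the genotypes while the transgene itself is made in the epidermis.

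Collagens are secreted or membrane-bound proteins whose chains wind into a helix. Dermal fibroblasts make the fibrillar collagens of the dermis, keratinocytes make several of the collagens that fasten the epidermis to it, and the basement membrane between them is a sheet built on type IV collagen. Fibrillar collagens pack into fibres, FACIT collagens sit on the surface of those fibres, transmembrane collagens are anchored in the plasma membrane, and the remaining types form anchoring fibrils, beaded filaments, open networks or proteoglycan-linked multiplexins.

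The libraries held between 11225705 and 19505036 counts, and collagens took 1.24% to 1.74% of these in WT and 1.56% to 2.00% in TG skin. *Yap1* was detected at 124 to 141 CPM in WT and 129 to 144 CPM in TG libraries, with overlapping groups, but whether reads of the transgene count towards this mouse gene is not given in the sources used here. CPM is a gene's count per megacount of its library after TMM scaling, which corrects for differences in library composition. Of the cell type markers listed, *Matn1* of cartilage alone was at 0 over a whole group (TG, with 1 count in WT). The summed markers of hair shaft and inner root sheath ranged from 12215 to 14888 CPM in WT and from 1364 to 8304 CPM in TG skin, with TG replicate 2 lowest by a wide margin. Skeletal muscle markers ranged from 1065 to 5659 CPM in WT and from 965 to 2724 CPM in TG skin, macrophage markers from 267 to 307 and from 383 to 420 CPM, and melanocyte markers from 369 to 430 and from 138 to 235 CPM. In these bulk samples, fewer cells of a type and less RNA per cell cannot be told apart.

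Per kilobase of exon, the same 8 collagens led in both genotypes and in the same order. *Col3a1*, the chain of type III collagen, led with 527 CPM per kb in WT and 695 CPM per kb in TG skin. The type I collagen chains followed, *Col1a1* with 365 and 459 CPM per kb and *Col1a2* with 198 and 233 CPM per kb. The fourth was *Col17a1*, the hemidesmosomal collagen of basal keratinocytes, with 85.7 and 127 CPM per kb, close to *Col6a1* of the beaded filaments with 84.0 and 95.1 CPM per kb. *Col4a1* of the basement membrane stood at 72.7 and 62.3 CPM per kb. At the other end, 7 collagens had at most 19 counts in any library and were not tested, namely *Col2a1*, *Col9a1*, *Col9a2* and *Col10a1*, best known from cartilage, and *Col19a1*, *Col22a1* and *Col6a4*. The other 37 passed the filter of 1 CPM in at least 3 libraries (here on library totals without TMM), and none of them passed it through the libraries of 1 genotype alone.

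**Figure D1:**
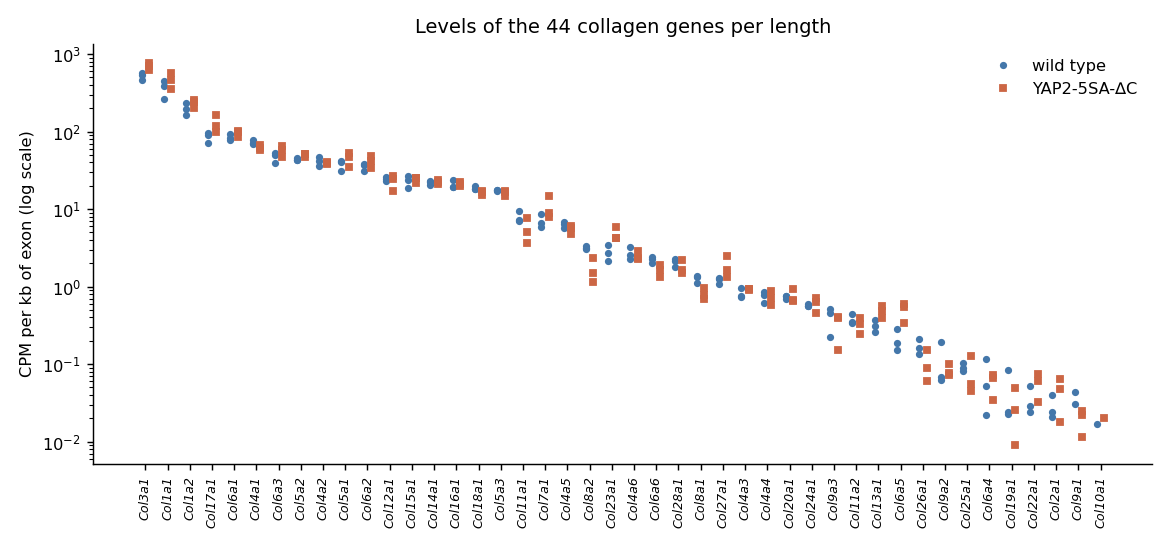
Level of each collagen in CPM per kb of exon on a log axis, ordered by mean WT level, with 1 point per library in WT and TG skin. Libraries with a count of 0 are not drawn. The levels span from *Col3a1*, at a mean of 527 and 695 CPM per kb, down to *Col10a1*, with at most 1 count per library.

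None of the 37 tested collagens passed edgeR's quasi-likelihood test at a Benjamini-Hochberg false discovery rate (FDR) of 0.05, where 1.91% of the 15102 genes tested did (1.44% higher and 0.464% lower in TG). The FDR of the collagens ranged from 0.0641 to 0.906, and 20 estimates were above 0 and 17 below. The median log2 fold change of TG against WT was 0.03, beside -0.01 over all genes tested. All TG libraries lay above all WT libraries for 7 collagens and below them for 6, beside 15.5% and 18.2% of all genes (33.8% in all), and the groups overlapped for 24. At an unadjusted p under 0.05 there were 7 collagens with positive and 5 with negative estimates, beside 13.3% and 13.0% of all genes. The likelihood-ratio test of edgeR, which the study used, called 4 collagens, beside 10.4% of all genes (5.52% higher and 4.87% lower), with *Col6a5* and *Col23a1* higher and *Col8a1* and *Col8a2* lower in TG skin. DESeq2 called these 4 and also *Col3a1* and *Col17a1* as higher, beside 10.5% of all genes (6.35% higher and 4.18% lower), and limma-voom called none, beside 1.65% (1.23% higher and 0.417% lower). A miss at this threshold with 3 mice per genotype does not show that a collagen was equal in both, so 95% intervals are given with the main collagen estimates.

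**Figure D2:**
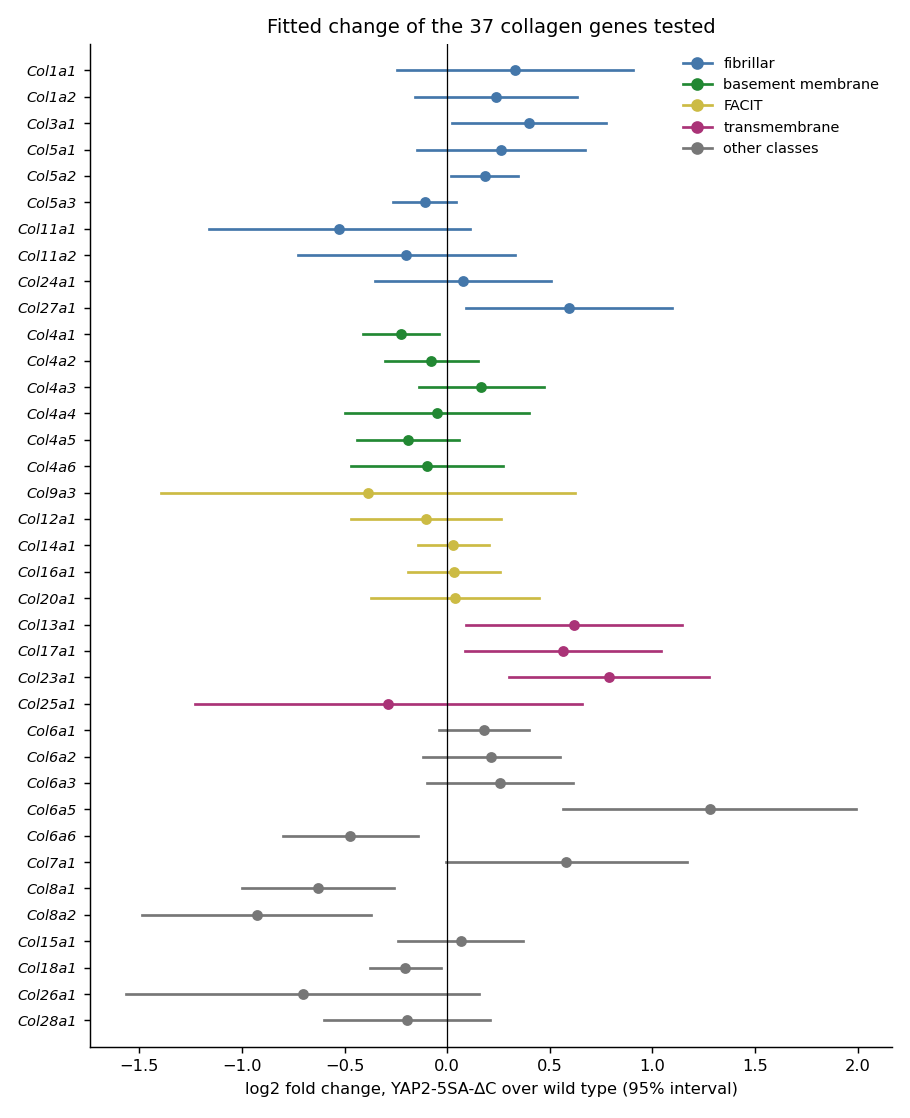
Log2 fold change of TG against WT skin for the 37 tested collagens by class, with points as edgeR quasi-likelihood estimates and bars as 95% intervals. Estimates run from -0.93 for *Col8a2* to 1.28 for *Col6a5*, and no FDR is below 0.05.

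Among the 11 fibrillar collagens, 10 were tested and none passed, with a median log2 fold change of 0.21. *Col3a1* stood at 5652, 4601 and 5268 CPM in the WT libraries and at 6864, 7500 and 6105 CPM in the TG libraries. All TG values of *Col3a1* were above all WT values. Its log2 fold change was 0.40 (SE 0.16, 95% interval 0.02 to 0.78), with a quasi-likelihood FDR of 0.169, a likelihood-ratio FDR of 0.0772 and a DESeq2 adjusted p of 0.00425. *Col1a1*, which encodes the major chain of type I collagen, stood at 2928, 1719 and 2544 CPM in WT and at 3059, 3691 and 2292 CPM in TG skin. The groups of *Col1a1* overlapped, with TG replicate 3 below the other TG mice and WT replicate 2 lowest, and the log2 fold change was 0.33 (SE 0.24, 95% interval -0.25 to 0.91, edgeR FDR 0.423). It was 0.14 without WT replicate 2 and 0.51 without WT replicate 1. *Col1a2*, its partner chain, gave 2913, 2028 and 2435 CPM in WT and 2997, 3206 and 2494 CPM in TG skin. This also overlapped, at a log2 fold change of 0.24 (SE 0.17, 95% interval -0.16 to 0.63, edgeR FDR 0.401). Without WT replicate 2 it was 0.12, and without WT replicate 1 it was 0.38.

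*Col3a1* lies on the plus strand at chr1:45311538-45349706 (GRCm38). Of the 35 collagens with a RefSeq promoter window, it is 1 of 4 that hold the core of the TEAD motif there. TEAD proteins are the DNA-binding partners of YAP, which is why the stretch around this match is shown. The core was searched as GGAATG on both strands in the 250 bases before the start of each gene. Capitals mark the match, which reads as its reverse complement CATTCC on the printed strand. The stretch is chr1:45311343-45311402, plus strand, from base -195 to base -136 relative to the start, in the GRCm38.p6 build of RefSeq, and overlaps no annotated exon.
Col3a1: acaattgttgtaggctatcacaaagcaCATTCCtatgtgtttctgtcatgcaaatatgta
The core was found in the windows of 11.4% of the collagens with a window (*Col3a1*, *Col6a2*, *Col18a1* and *Col20a1*) and of 14.4% of the 27025 genes with one, so collagen windows held it at about the share of all genes. The log2 fold changes of the others were 0.22 for *Col6a2*, 0.04 for *Col20a1* and -0.20 for *Col18a1*, which holds 2 matches. A match of these letters is a description and not a binding site.

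The type V collagen chains, which set the diameter of type I fibrils, also had estimates below 0.40 on the log2 scale. *Col5a2* measured 437, 415 and 413 CPM in WT and 495, 496 and 445 CPM in TG skin. The TG mice were all above the WT mice by a narrow margin, with a log2 fold change of 0.18 (SE 0.07, 95% interval 0.02 to 0.35, edgeR FDR 0.152). *Col5a1* averaged 318 ± 46.8 CPM in WT and 382 ± 80.0 CPM in TG skin (SD, n = 3 each) and overlapped, at a log2 fold change of 0.26 (95% interval -0.15 to 0.67) that was 0.14 without TG replicate 2 and 0.42 without TG replicate 3. *Col5a3* was the only fibrillar collagen with all TG libraries below all WT libraries, with a log2 fold change of -0.11 (-0.04 without TG replicate 2) and an edgeR FDR of 0.326. *Col27a1*, a fibrillar collagen of low level in skin, measured 16.6, 14.2 and 16.0 CPM in WT and 21.5, 31.8 and 17.4 CPM in TG skin. TG replicate 2 was far above the other TG mice, and the log2 fold change of 0.59 (SE 0.21, 95% interval 0.09 to 1.10, edgeR FDR 0.139) was 0.34 without it. *Col11a1*, named after its values were seen, had the lowest fibrillar estimate, -0.53 (95% interval -1.16 to 0.11), with TG replicate 2 lowest at 46.2 CPM against 88.0 to 121 CPM in WT, and was at -0.29 without that library and -0.84 without TG replicate 1.

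Summed over the class, fibrillar collagens reached 11010 ± 1654 CPM in WT and 13806 ± 1862 CPM in TG skin (SD, n = 3 each), and the groups overlapped. The 9 markers of fibroblasts, none at 0 in either group, summed to 1808 to 2090 CPM in WT and 2190 to 2556 CPM in TG skin, with estimates above 0 for 9 of 9, of which the quasi-likelihood test called 0 and DESeq2 called 3, beside 10.5% of all genes, and 6 had an unadjusted p under 0.05, beside 26.3% of all genes. The 9 include 4 genes of the list of fibril organisers described later. Divided by these markers within each library, fibrillar collagens gave 5.59 ± 0.443 in WT and 5.88 ± 0.417 in TG skin, which overlapped. *Col3a1* alone per fibroblast marker was 2.71, 2.55 and 2.65 in WT and 3.01, 2.93 and 2.79 in TG skin, all TG mice above all WT mice. The part of fibroblast abundance in the fibrillar values was not tested.

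**Figure D3:**
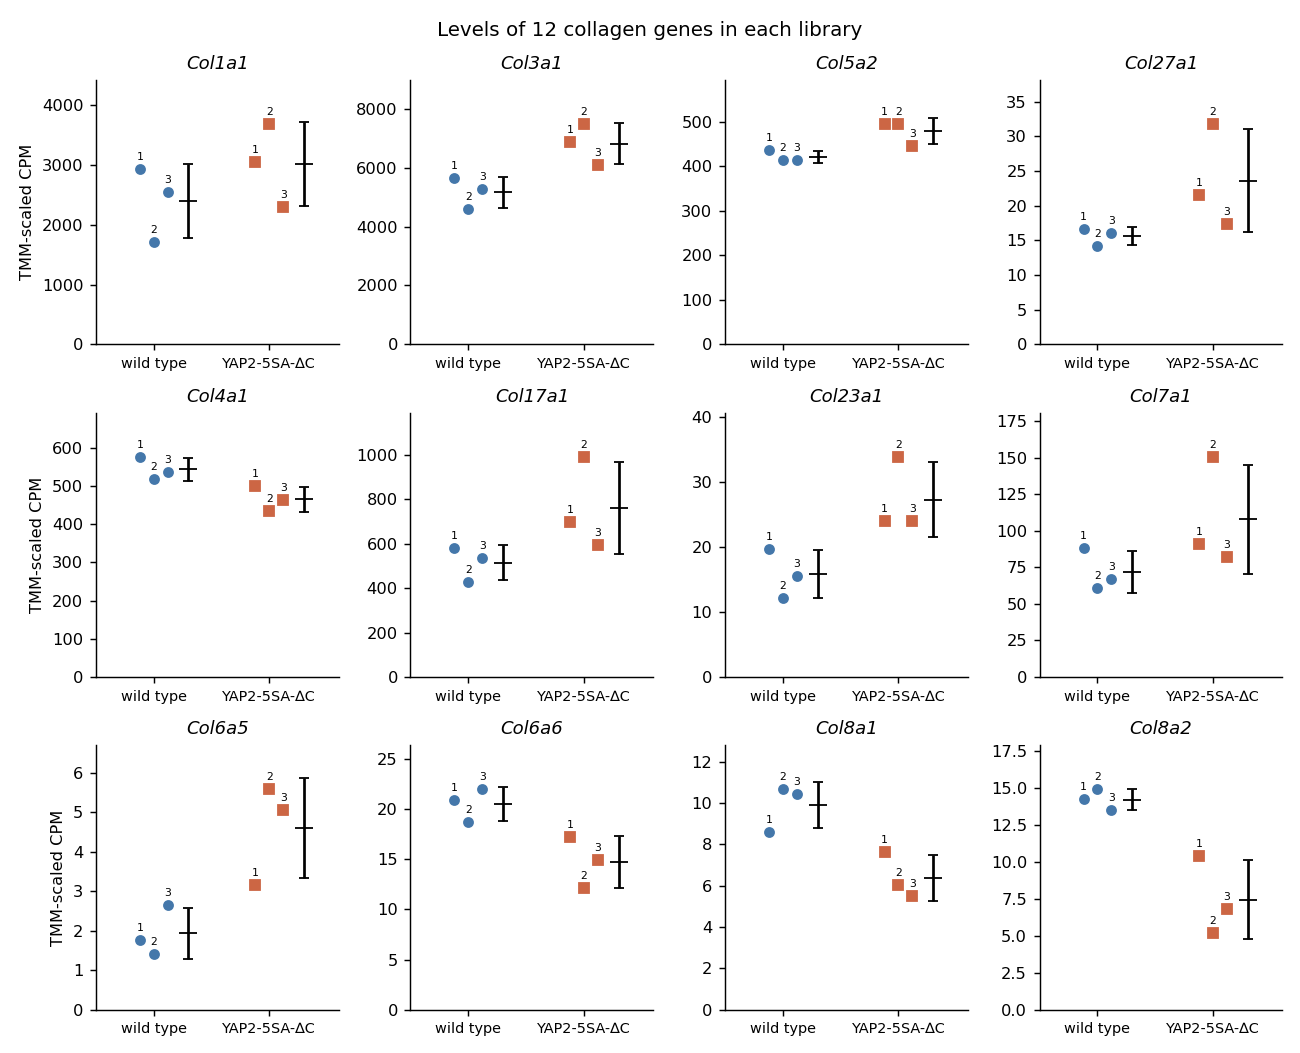
Level in CPM of 12 collagens in wild type (WT) and YAP2-5SA-∆C (TG) skin, with points numbered by replicate and bars for the mean ± SD (n = 3). All TG points sit above all WT points for *Col3a1*, *Col5a2*, *Col27a1*, *Col17a1*, *Col23a1* and *Col6a5*, all sit below for *Col4a1*, *Col6a6*, *Col8a1* and *Col8a2*, and *Col1a1* and *Col7a1* overlap.

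All 6 type IV chains, the basement membrane class, were tested and none passed, with 5 of 6 estimates below 0 and a median log2 fold change of -0.09. *Col4a1*, which with *Col4a2* makes the type IV collagen of nearly all basement membranes, stood at 576, 517 and 535 CPM in WT and 499, 434 and 462 CPM in TG skin. Every TG mouse was below every WT. The log2 fold change of *Col4a1* was -0.22 (SE 0.08, 95% interval -0.41 to -0.04, edgeR FDR 0.134). *Col4a2*, in contrast, overlapped at 306, 236 and 273 CPM against 265, 258 and 250 CPM, with a log2 fold change of -0.08 (SE 0.10, 95% interval -0.31 to 0.15). The pair starts head to head on chromosome 8, with the gene bodies sharing 22 bases. The per-length ratio of *Col4a1* to *Col4a2* was 1.78 ± 0.141 in WT and 1.60 ± 0.0966 in TG skin (SD, n = 3 each), which an exact permutation test (two-sided) placed at p = 0.2 and cannot place below 0.1.

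The other type IV chains also sit in head to head pairs. *Col4a4* and *Col4a3*, 71 bases apart on chromosome 1, had log2 fold changes of -0.05 and 0.17, and *Col4a6* and *Col4a5*, 1308 bases apart on chromosome X, had -0.10 and -0.19. With 1 library left out these ran from -0.19 to 0.09 for *Col4a4*, 0.08 to 0.31 for *Col4a3*, -0.21 to 0.06 for *Col4a6* and -0.25 to -0.10 for *Col4a5*. *Col4a5* measured 45.7, 42.4 and 38.0 CPM in WT and 40.1, 38.0 and 32.3 CPM in TG skin and overlapped, with an edgeR FDR of 0.290. The class summed to 894 ± 72.3 CPM in WT and 796 ± 38.6 CPM in TG skin and overlapped. The 5 endothelial markers, a cell type rich in type IV collagen, lay on the other side of this difference, with 95.9 to 114 CPM in WT and 115 to 138 CPM in TG skin, none at 0 and 5 of 5 estimates above 0. Type IV collagen per endothelial marker was 8.42 ± 1.53 in WT and 6.47 ± 0.845 in TG skin, with overlap. The part of vessels in these values was not tested.

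Of 9 FACIT collagens, 5 were tested and none passed. All 5 overlapped between the genotypes, and the median log2 fold change was 0.03. *Col12a1*, which coats type I fibrils, measured 400, 345 and 368 CPM in WT and 403, 263 and 371 CPM in TG skin, so that only TG replicate 2 stood low. Its log2 fold change was -0.10 (SE 0.16, 95% interval -0.47 to 0.26) and 0.08 without that library. *Col14a1*, a related fibril-coating collagen, gave the tightest estimate of the class at 0.03 (SE 0.07, 95% interval -0.15 to 0.20), with 144, 157 and 164 CPM against 168, 158 and 148 CPM. *Col9a3*, a chain of the cartilage FACIT, was near the filter at 0.855 to 1.98 CPM in WT and 0.587 to 1.55 CPM in TG skin. Its log2 fold change of -0.39 was -0.06 without TG replicate 2, and its interval of -1.39 to 0.62 does not exclude a large difference. Markers of chondrocytes, of which *Matn1* was at 0 in all TG libraries and the other 4 were above 0 in every library, summed to 41.5 to 50.3 CPM in WT and 37.6 to 45.1 CPM in TG skin.

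The transmembrane class had the highest median of the classes, a log2 fold change of 0.59 over 4 tested members of 4, and its summed level was above all WT libraries in all TG libraries. The sums were 604, 444 and 553 CPM in WT and 726, 1029 and 621 CPM in TG skin. *Col17a1* made up nearly all of this. It lies at chr19:47646344-47692094 on the minus strand and encodes the collagen that spans the basal keratinocyte membrane in hemidesmosomes, and it stood at 581, 430 and 535 CPM in WT and 699, 992 and 593 CPM in TG skin. TG mice were all above WT mice, TG replicate 3 by only a few per cent. The log2 fold change of *Col17a1* was 0.56 (SE 0.20, 95% interval 0.09 to 1.04), with a quasi-likelihood FDR of 0.139 and a DESeq2 adjusted p of 0.0200, and the estimate was 0.34 without TG replicate 2.

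*Col23a1* (chr11:51289920-51583918, plus strand), another transmembrane collagen, had the lowest p of the class at 19.6, 12.2 and 15.6 CPM in WT and 24.0, 33.9 and 24.0 CPM in TG skin. All TG mice were above all WT mice. The log2 fold change of *Col23a1* was 0.79 (SE 0.21, 95% interval 0.30 to 1.28), with a quasi-likelihood FDR of 0.0768 and a likelihood-ratio FDR of 0.00501. *Col13a1*, described after its values were seen, also did not overlap, at 1.44 ± 0.250 CPM and 2.22 ± 0.376 CPM (SD, n = 3 each, edgeR FDR 0.141), while *Col25a1* overlapped at a log2 fold change of -0.29 that was -0.02 without TG replicate 2.

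The 5 markers of basal keratinocytes, the cells that carry the transgene product, included none at 0. They summed to 2879 to 3332 CPM in WT and 4696 to 5980 CPM in TG skin, with 5 of 5 estimates above 0. The quasi-likelihood test called 1 and DESeq2 called 3, beside 1.91% and 10.5% of all genes. *Itgb4* and *Trp63* overlapped between the genotypes. Per basal marker, *Col17a1* was 0.167 ± 0.0151 in WT and 0.142 ± 0.0273 in TG skin, and *Col23a1* was 0.00509 ± 0.000825 and 0.00511 ± 0.000564 (SD, n = 3 each). Both ratios overlapped between the genotypes. *Col7a1*, the anchoring fibril collagen that holds the basement membrane to the dermis, measured 88.2, 60.6 and 67.3 CPM in WT and 90.6, 151 and 82.1 CPM in TG skin. TG replicate 2 was far above the rest and the groups overlapped, with a log2 fold change of 0.58 (SE 0.25, 95% interval -0.00 to 1.17, edgeR FDR 0.193) that was 0.28 without it. Per basal marker *Col7a1* was 0.0232 ± 0.00286 in WT and 0.0200 ± 0.00485 in TG skin, again with overlap. The part of keratinocyte number in the levels of these collagens was not tested.

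Beaded filament collagen, type VI, is built from *Col6a1*, *Col6a2* and a long partner chain. The common chains had estimates within a narrow band, and all overlapped. *Col6a1* measured 402, 338 and 364 CPM in WT and 432, 440 and 378 CPM in TG skin (log2 fold change 0.18, 95% interval -0.04 to 0.40). *Col6a2* gave 0.22 (-0.12 to 0.55) and *Col6a3*, the usual long chain, 0.26 (-0.10 to 0.61). With 1 library left out these estimates ran from 0.12 to 0.25, 0.10 to 0.34 and 0.14 to 0.38. The alternative long chains had estimates of opposite sign. *Col6a5* (chr9:105856078-105960643, minus strand) stood at 1.76, 1.41 and 2.66 CPM in WT and 3.16, 5.58 and 5.05 CPM in TG skin, from 32, 27 and 28 counts and 57, 95 and 81 counts.

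All TG mice were above all WT mice for *Col6a5*, which had the lowest FDR of the collagens in both edgeR tests but not in DESeq2 or limma-voom. Its log2 fold change was 1.28 (SE 0.30, 95% interval 0.57 to 1.99), with a quasi-likelihood FDR of 0.0641, a likelihood-ratio FDR of 0.000112 and a DESeq2 adjusted p of 0.00639. *Col6a6*, described after its values were seen, lies 27917 bases away on the same strand of chromosome 9, with 20.8, 18.6 and 21.9 CPM in WT and 17.2, 12.1 and 14.9 CPM in TG skin. All TG mice were below all WT mice here, at a log2 fold change of -0.47 (SE 0.14, 95% interval -0.80 to -0.14, edgeR FDR 0.0936). The per-length ratio of *Col6a5* to *Col6a6* was 0.0820, 0.0737 and 0.118 in WT and 0.179, 0.449 and 0.330 in TG skin. This reached p = 0.1 in the two-sided exact permutation test, the smallest it can give, and 0.5 after adjustment over the 10 chain pairs compared. It was the only 1 of the 10 pairs without overlap. With *Col6a5* above and *Col6a6* below all WT values in every TG library, their ratio could not overlap. The permutation p was thus set in advance by the single genes and adds no evidence to theirs. *Col6a4*, next to *Col6a5*, was below the filter.

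The network collagens that were tested both had negative estimates. *Col8a1* (chr16:57624258-57754737, minus strand) encodes a chain of type VIII collagen, a short network-forming collagen of vessel walls and cornea, and measured 8.61, 10.7 and 10.4 CPM in WT and 7.60, 6.05 and 5.48 CPM in TG skin. Its partner *Col8a2* (chr4:126286793-126314330, plus strand), described after its values were seen, measured 14.2, 14.9 and 13.5 CPM in WT and 10.4, 5.17 and 6.79 CPM in TG skin. In both, all TG mice were below all WT mice. The log2 fold change was -0.63 (SE 0.16, 95% interval -1.0 to -0.26) for *Col8a1* and -0.93 (SE 0.24, 95% interval -1.49 to -0.37) for *Col8a2*. Their quasi-likelihood FDRs were 0.0688 and 0.0726, and their likelihood-ratio FDRs 0.0166 and 0.00139. Without TG replicate 1, *Col8a2* passed with an edgeR FDR of 0.0482, the only collagen to do so in any fit with a library left out. Endothelial markers stood at 95.9 to 114 CPM in WT and 115 to 138 CPM in TG skin, and smooth muscle markers at 264 to 343 and 214 to 305 CPM. The 7 markers of hair shaft and inner root sheath, 7 of 7 with estimates below 0 and none at 0, stood at 12215 to 14888 CPM in WT and 1364 to 8304 CPM in TG skin, where TG replicate 2 was lowest. TG replicate 2 was also the lowest for *Col8a2*, but for *Col8a1* TG replicate 3 was. The 7 dermal papilla markers, none at 0, stood at 276 to 341 and 255 to 306 CPM and overlapped, with 2 of the 6 tested having estimates above 0 and 4 below. The part of hair follicles in the type VIII values was not tested.

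The 250 bases before the RefSeq starts of *Col8a1* and *Col8a2* are shown because both chains had negative estimates in the same libraries and both windows hold several GC boxes, the GGGCGG letters bound by SP1-type factors. Capitals mark each GC box on either strand, GGGCGG or CCGCCC, and adjoining capitals in *Col8a2* are boxes that overlap. The stretches are chr16:57754738-57754987 (minus strand) and chr4:126286544-126286793 (plus strand) of GRCm38.p6, printed in the direction of the gene.
Col8a1: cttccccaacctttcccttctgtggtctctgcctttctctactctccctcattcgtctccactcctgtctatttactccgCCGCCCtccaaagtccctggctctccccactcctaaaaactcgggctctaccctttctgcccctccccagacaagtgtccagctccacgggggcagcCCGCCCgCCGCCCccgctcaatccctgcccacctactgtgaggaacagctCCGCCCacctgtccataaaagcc
Col8a2: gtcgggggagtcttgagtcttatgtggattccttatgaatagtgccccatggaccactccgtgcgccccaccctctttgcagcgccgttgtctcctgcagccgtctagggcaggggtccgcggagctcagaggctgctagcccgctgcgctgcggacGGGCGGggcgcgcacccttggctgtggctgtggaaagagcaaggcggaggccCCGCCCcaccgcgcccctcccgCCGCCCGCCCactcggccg
Over all collagens, 21 of the 35 with a window held a GC box, beside 35.4% of all genes with one, while a CCAAT box was in 37.1% beside 37.5% and TATAAA in 14.3% beside 14.3%, all searched on both strands. Collagen windows also had a median GC content of 59.0%, beside 52.4% over all windows, and GC box frequency was not compared at equal GC content.

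Among the multiplexins, *Col18a1*, whose end is cleaved to endostatin, measured 141, 129 and 126 CPM in WT and 115, 122 and 106 CPM in TG skin. All TG mice were below all WT mice, with a log2 fold change of -0.20 (SE 0.07, 95% interval -0.38 to -0.03, edgeR FDR 0.139). *Col15a1*, its close relative, overlapped at 167, 120 and 149 CPM against 159, 161 and 137 CPM, with a log2 fold change of 0.07 (95% interval -0.24 to 0.37). *Col26a1* and *Col28a1*, the remaining types, had negative estimates of -0.70 and -0.20 and overlapped. These ran from -1.09 to -0.46 and from -0.38 to -0.07 with 1 library left out.

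Taking each class as a share of all collagen CPM within a library, fibrillar collagens held 75.4%, 73.4% and 74.9% in WT and 77.1%, 77.7% and 76.4% in TG skin. The TG mice were all above the WT mice, and *Col3a1* alone accounted for 35.2% ± 1.28 and 38.2% ± 1.07 (SD, n = 3 each). *Col1a1* and *Col1a2* shares overlapped, at means of 16.1% and 16.7% and of 16.6% and 16.2%. Basement membrane collagens held 5.84%, 6.59% and 5.87% in WT and 4.61%, 3.85% and 5.02% in TG skin, all TG mice below all WT mice. Transmembrane collagens held 3.61% ± 0.0828 and 4.38% ± 0.667, with TG mice above. FACIT collagens held 4.59% ± 0.425 and 3.7% ± 0.721, and the other classes 11.1% ± 0.235 and 10.4% ± 0.0557. In both, all TG mice were below all WT mice. For FACIT the margin was too small to print, with 4.26% in both WT replicate 1 and TG replicate 3. These shares sum to a fixed total, so a higher share of 1 class lowers the others, and they were not tested.

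**Figure D4:**
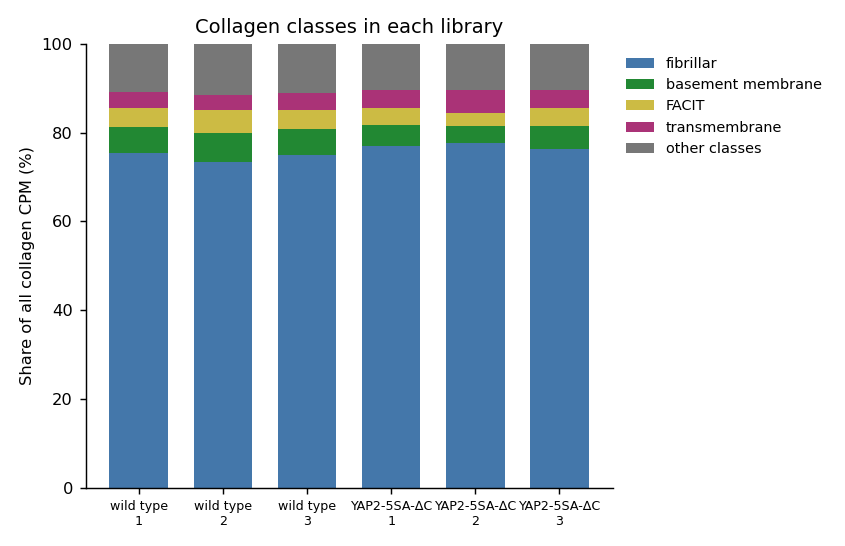
Share of all collagen CPM held by each class in each library, in percent, for 3 WT and 3 TG libraries. Fibrillar collagens take 73.4% to 75.4% in WT and 76.4% to 77.7% in TG skin, and basement membrane collagens 5.84% to 6.59% and 3.85% to 5.02%.

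Collagen chains are hydroxylated and folded in the cell, trimmed and crosslinked outside it, bound by receptors and broken down by proteases. Of 66 genes listed for these steps, 63 were tested and 3 passed edgeR's quasi-likelihood test, namely *Mmp9*, *Mmp13* and *P4ha3*, each higher in TG skin, beside 1.91% of all genes (1.44% higher). The likelihood-ratio test called 9 higher and 1 lower, beside 5.52% and 4.87% of all genes, and DESeq2 called 13 higher and 1 lower, beside 6.35% and 4.18%. The median log2 fold change over the 63 was 0.15, beside -0.01 over all genes. At an unadjusted p under 0.05 there were 22 with positive and 3 with negative estimates, beside 13.3% and 13.0% of all genes. *P4ha3*, *Mmp13* and *Lair1* passed the filter through the TG libraries alone, so a higher level there was a condition of their being tested, and their direction is given as a description. Without these 3 genes, 60 were tested and only *Mmp9* passed, with 19 positive and 3 negative estimates at an unadjusted p under 0.05, a median of 0.15, 7 higher and 1 lower by the likelihood-ratio test and 12 higher and 1 lower by DESeq2. Without any 1 of the WT libraries all 3 calls were lost, and without a TG library *P4ha3* and *Mmp13* did not pass the filter. With a block for the replicate number none of the 3 passed.

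*Mmp13*, an interstitial collagenase that cuts fibrillar collagen, measured 0.494, 0.627 and 0.855 CPM in WT and 5.66, 2.47 and 7.97 CPM in TG skin. These come from 9, 12 and 9 counts against 102, 42 and 128 counts, with no overlap. The log2 fold change was 3.06 (SE 0.48, edgeR FDR 0.0414), limma-voom gave 0.0660, and the FDR was 0.0744 to 0.186 without a WT library. *Mmp9*, a gelatinase that acts on unwound and type IV collagen, rose from 2.74, 3.03 and 4.18 CPM to 9.49, 6.58 and 8.28 CPM. Its log2 fold change was 1.31 (SE 0.21, edgeR FDR 0.0414), and the FDR ran from 0.0152 without TG replicate 2, the only library whose removal kept the call, to 0.186. *Ctsk*, a lysosomal collagenase, missed the threshold at 0.50 (SE 0.10, edgeR FDR 0.0527). The likelihood-ratio test and DESeq2 called *Ctsk* (0.0156 and 0.000585). *Mmp3*, a stromelysin named here after its values were seen, measured 11.03, 10.6 and 16.3 CPM in WT and 24.2, 21.1 and 24.2 CPM in TG skin without overlap. Its log2 fold change was 0.88 (SE 0.17), with a quasi-likelihood FDR of 0.0529, and it was called by limma-voom (0.0480), the likelihood-ratio test (0.000218) and DESeq2 (0.000108). Over the 9 tested breakdown genes the median was 0.36, with *Mmp13* among them, and the likelihood-ratio test called 4 and DESeq2 6, all higher, beside 5.52% and 6.35% of all genes.

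*P4ha3*, a catalytic subunit of collagen prolyl 4-hydroxylase, was the only 1 of 21 synthesis and folding genes to pass the quasi-likelihood test, and it was tested only because of its level in TG skin, with 0.549, 0.470 and 0.665 CPM in WT and 1.55, 1.41 and 1.62 CPM in TG skin. The counts behind this were 10, 9 and 7 against 28, 24 and 26, the log2 fold change was 1.47 (SE 0.24, edgeR FDR 0.0437), and the FDR was 0.0732 to 0.186 without a WT library. The group's median was 0.12. *Plod2*, the lysyl hydroxylase of collagen telopeptides, stood at 15.5, 19.5 and 19.2 CPM in WT and 10.7, 9.22 and 12.5 CPM in TG skin, all TG mice below all WT mice. Its log2 fold change was -0.74 (SE 0.14), with a quasi-likelihood FDR of 0.0524, a likelihood-ratio FDR of 0.00160 and a DESeq2 adjusted p of 0.00157. Its relative *Plod1* was at 0.31, with an edgeR FDR of 0.0684 and a DESeq2 adjusted p of 0.0484. *P3h4*, which helps hydroxylate collagen and is named here because the likelihood-ratio test (0.0387) and DESeq2 (0.0306) called it, was at 0.53.

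None of the 12 tested processing and crosslinking genes passed the quasi-likelihood test, where 5 had an unadjusted p under 0.05, beside 26.3% of all genes. These 5 estimates were all positive, and 13.3% of all genes had a positive estimate at that threshold. Of the 5 lysyl oxidases, which start crosslinks between fibrils, *Loxl4* was at a log2 fold change of 0.56 (edgeR FDR 0.0576), *Lox* at 0.40 and *Loxl1* at 0.44, each without overlap between the groups, while *Loxl2* at -0.10 and *Loxl3* at -0.16 overlapped. Without TG replicate 2, *Loxl1* was at 0.26 and *Loxl3* at 0.06, and without WT replicate 1 *Loxl2* was at 0.05. The likelihood-ratio test called *Loxl4* (0.0160), and DESeq2 called *Loxl4* (0.00783) and *Lox* (0.0311). Of 9 receptors none passed the quasi-likelihood test, and 3 had an unadjusted p under 0.05 with *Lair1* among them, a share close to the 26.3% of all genes. The fibrillar collagen receptor *Ddr2* was at 0.48 (edgeR FDR 0.0589), the inhibitory collagen receptor *Lair1* at 0.71, and the integrin chain *Itga11*, which binds type I collagen, at -0.48. *Ddr2* was called by the likelihood-ratio test (0.0245) and DESeq2 (0.000965). Of 12 fibril organisers none passed the quasi-likelihood test, and 4 had an unadjusted p under 0.05, also close to the 26.3% of all genes. These 4 estimates were all positive, beside 13.3% of all genes with a positive estimate at that threshold. Among them *Thbs2*, a matricellular protein of fibril assembly, was at 0.55 (edgeR FDR 0.0759), the proteoglycan *Lum* at 0.29 and *Fbln1* at 0.37. The likelihood-ratio test called *Thbs2* (0.0223), and DESeq2 called *Thbs2* (0.00307) and *Lum* (0.0235). Macrophage markers stood at 267 to 307 CPM in WT and 383 to 420 CPM in TG skin, with 4 of 4 estimates above 0. The quasi-likelihood test called 2 of them, beside 1.91% of all genes. Their part in the values of *Mmp9*, *Mmp13* and *Lair1* was not tested, and *Mmp13* and *Lair1* were tested only through their level in TG skin.

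**Figure D5:**
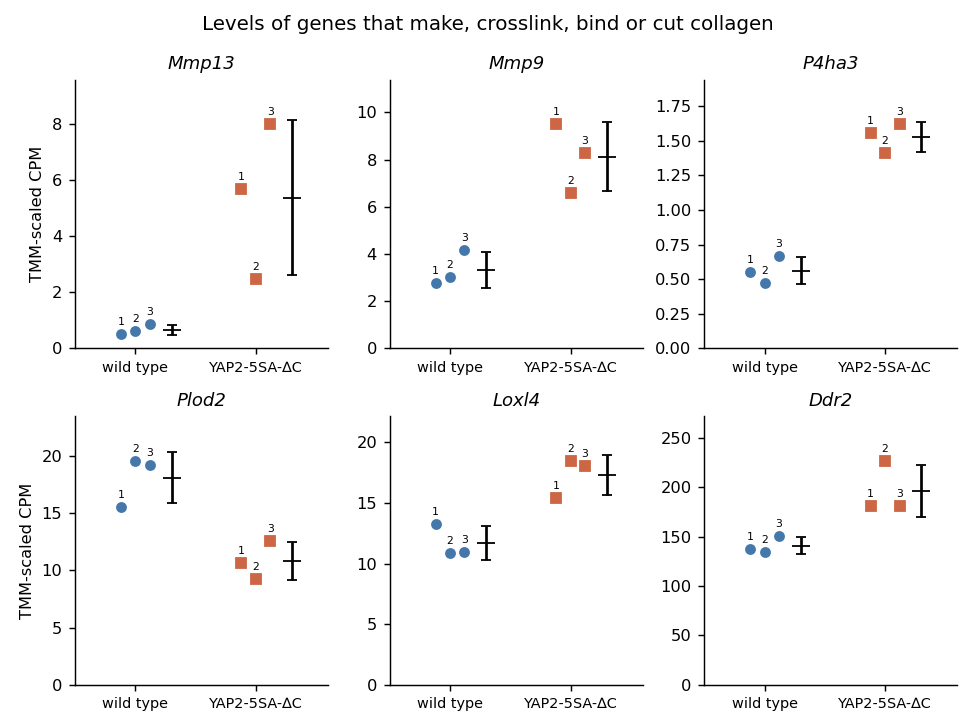
Level in CPM of 6 genes that make, crosslink, bind or cut collagen in wild type (WT) and YAP2-5SA-∆C (TG) skin, with points numbered by replicate and bars for the mean ± SD (n = 3). *Mmp13*, *Mmp9* and *P4ha3* passed edgeR's quasi-likelihood test, *Plod2*, *Loxl4* and *Ddr2* did not pass it, and the groups overlap in none of the 6.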

How the data were processed

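RNA-Seq libraries of skin from 3 wild type and 3 YAP2-5SA-∆C mice were analysed from the gene counts the authors deposited, as whole reads per Ensembl gene. Per the labels, reads were mapped to GRCm38 with TopHat2 2.0.12 and Bowtie2 2.1.0 and counted with HTSeq, and the study's methods give another TopHat2 release. The strand setting and the annotation release are not given in the sources used here, so antisense or overlapping reads cannot be told apart, and 13 collagens share exon bases with another gene, up to 563 bases in *Col4a3*. Of the identifiers, 558 were absent from GENCODE M21, which gave names and exon lengths.

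Genes with 1 CPM, on library totals before scaling, in at least 3 libraries were fitted with TMM scaling and edgeR 4.0.16's quasi-likelihood test (R 4.3.3), genotype as the only term, with Benjamini-Hochberg adjustment over 15102 genes. Alternatives were the likelihood-ratio test, limma 3.58.1 voom, DESeq2 1.42.0, other scalings and filters, a block for the replicate number, and fits without each library. The script was tested on simulated data. Ratios of chains were compared by exact permutation. Depth of 11225705 to 19505036 counts limits low genes, and p-values measure spread between mice. Each class's 2 collagens with the lowest p, structural skin collagens, called companion genes and the 3 lowest p of each companion group were named. Members and lists were chosen with earlier results of these data known.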

Additional observations from a re-analysis of the deposited data

How the results depend on the processing

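Without the filter on low counts 497 genes of the table were called, and the likelihood-ratio test called 1568, DESeq2 1590, an FDR of 0.1 (chosen after seeing the data) 1964, and leaving out 1 library 0 to 816. For collagens, 0 were called higher and 0 lower, against 2 and 2 with the likelihood-ratio test, 4 and 2 with DESeq2, 2 and 3 at an FDR of 0.1, and 0 higher and 0 to 1 lower with 1 library left out. For the companion genes 3 were called higher, against 5 with upper-quartile scaling, 6 and 1 lower without the filter, 1 with a minimum of 10 counts, 9 and 1 lower with the likelihood-ratio test, 13 and 1 lower with DESeq2, 12 and 1 lower at an FDR of 0.1, and 0 to 4 with 1 library left out. Same-numbered mice did not deviate together (correlations of -0.33, -0.23 and -0.05 over 15102 genes). This check cannot exclude a pairing of the samples, because single libraries also deviate on their own. The replicate block called 0 genes and 0 companion genes, with 2949 genes at an unadjusted p under 0.05. The FACIT median was -0.0894 without the filter. With 1 library left out, medians ranged from -0.01 to 0.09 for all collagens, 0.13 to 0.29 for fibrillar, -0.17 to 0.04 for basement membrane, -0.02 to 0.07 for FACIT, 0.43 to 0.78 for transmembrane and -0.12 to 0.03 for other classes, and log2 ratios of summed levels from 0.22 to 0.43, -0.22 to -0.10, -0.12 to 0.04, 0.34 to 0.72 and 0.09 to 0.28 for the 5 classes in that order. Among the collagens named by rule, estimates crossed 0 for *Col12a1* (-0.21 to 0.0775), *Col4a2* (-0.17 to 0.0234), *Col14a1* (-0.0152 to 0.0771) and *Col15a1* (-0.0577 to 0.18), and among the others for *Col4a4* (-0.19 to 0.09), *Col4a6* (-0.21 to 0.06), *Col16a1* (-0.01 to 0.14), *Col20a1* (-0.12 to 0.14) and *Col24a1* (-0.04 to 0.26). Of 292 gene estimates under alternatives with all libraries, 262 kept their direction and side of the threshold, 26 passed it newly, 4 no longer passed and 0 changed sign. The cause of these differences was not tested.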
